A study of Mus musculus with 4 samples.

Results

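Prostaglandins are lipid signals made from arachidonic acid. Phospholipases free the acid from membranes, and the cyclooxygenases turn it into an unstable endoperoxide. Terminal synthases convert that into prostaglandin E2, D2, F2alpha or prostacyclin, and each acts on its own G protein-coupled receptors. A dehydrogenase inactivates prostaglandins E2 and F2alpha. In adipose tissue of mice, prostaglandin E2 acting on the Gi-coupled receptor EP3 restrains lipolysis, and prostaglandin F2alpha acting on the Gq-coupled receptor FP inhibits the differentiation of adipocyte precursors. The genes described here are 10 of the 18781 in the table, chosen by symbol. They are the cyclooxygenase genes Ptgs1 and Ptgs2, the synthase genes Ptges, Ptgds and Ptgis, the dehydrogenase gene Hpgd, and the receptor genes Ptgfr, Ptger2, Ptger3 and Ptger4.

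The series holds 4 total-RNA sequencing libraries, 2 of mature dermal adipocytes taken from dorsal skin (dWAT) and 2 of mature inguinal adipocytes (sWAT), all from C57BL/6 mice at postnatal day 30, with no treatment or mutant allele given. Tissue was digested with collagenase and dispase and the floating cells were taken as mature adipocytes, so other cells attached to them and free RNA can be present. The labels do not say whether replicates came from separate or pooled animals, and the p-values therefore reflect library-to-library spread alone, some or all of which may be technical. Reads assigned to genes numbered 10127125 to 12730013 per library. Levels are the authors' normalized counts scaled to library size (CPM), in which 3 reads corresponded to 0.253 to 0.291 CPM. Transcripts of 15 adipocyte marker genes, among them Adipoq, Plin1 and Fabp4, summed to 66702 to 68441 CPM in dWAT and 63817 to 67961 CPM in sWAT. None of the 15 was at 0, and Car3, Cfd and Fabp4 weighed most in the sums. By the limma call defined below, 3 of the 15 were higher in dWAT (Plin1, Lep and Cebpa) and 0 in sWAT. Over all genes tested these shares were 7.56% and 8.8%.

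All 10 genes had reads, but the terminal synthases Ptgds and Ptgis did not reach 1 CPM in at least 2 libraries, so 8 were tested. Of these 8, Ptgfr and Hpgd were higher in dWAT by the call used throughout, a limma adjusted p under 0.05 over all 12797 genes tested on the log2(CPM + 0.5) scale. The same call was made for 7.56% of all genes tested in that direction, and for 16.4% in either direction. On reads recovered from the CPM values, edgeR and DESeq2 called the same 2 genes higher in dWAT, against 7.21% and 6.43% of all genes. None of the 8 was called higher in sWAT by limma or by edgeR, which called 8.8% and 8.85% of all genes in that direction. DESeq2 called 1, Ptger4, against 9.08% of all genes. Of the genes lower in dWAT, Ptger4 was also the only 1 of the 8 with an unadjusted limma p under 0.05. The median log2 fold change, dWAT over sWAT, was -0.053 over the 8 genes and 0.016 over all genes tested. An exact permutation test of 2 libraries against 2 cannot go below a two-sided p of 0.333, so single genes were tested only in the fit across all genes. In bulk RNA, fewer cells of a type and less RNA per cell cannot be told apart.

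**Figure D1:**
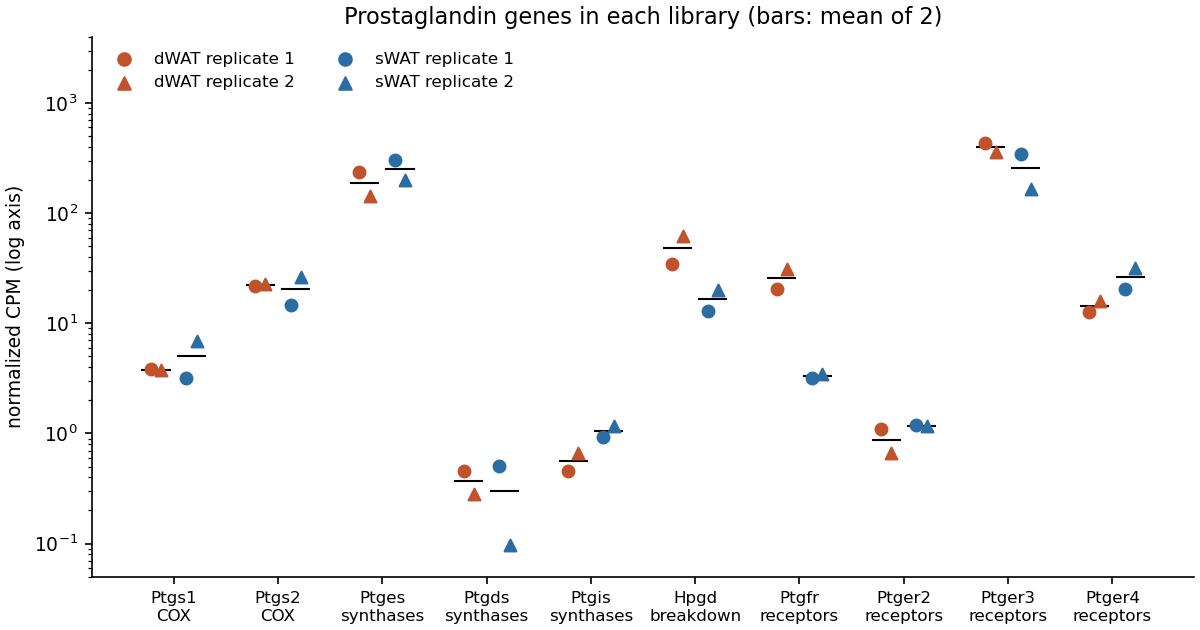
Normalized CPM (log axis) of the 10 genes in each library, dWAT left of sWAT, with circles for replicate 1, triangles for replicate 2 and black bars for the mean of 2 libraries. Ptger3 and Ptges lie above 100 CPM in every library, Ptgds and Ptgis near or under 1 CPM, and only Ptgfr shows a gap of several fold between the depots.

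The cyclooxygenases come first in the pathway. Ptgs2 encodes COX-2, the inducible enzyme, and lies on chromosome 1, 150100031 to 150108227 of GRCm38 (mm10), on the plus strand. It measured 21.8 and 23.0 CPM in dWAT, against 14.8 and 26.1 CPM in sWAT. The dWAT values lay between the sWAT values, so the depots overlapped. Its log2 fold change was 0.18 (SE 0.27, 95% interval -0.46 to 0.83, limma adjusted p = 0.682). Without sWAT replicate 1 it was -0.22, so 1 library set its sign. Ptgs1 encodes COX-1, the enzyme present in most tissues, and lies on chromosome 2, 36230426 to 36252272. It measured 3.82 and 3.79 CPM in dWAT, against 3.21 and 6.98 CPM in sWAT, from 38 to 72 reads per library. Here sWAT replicate 2 stood above the other libraries, and its log2 fold change of -0.29 (95% interval -1.15 to 0.57, limma adjusted p = 0.626) became 0.22 without that library. Per kb of exon, which allows levels of different genes to be set side by side, Ptgs2 was the higher of the pair in each library. The ratio of their CPM per kb was 4.85 and 5.13 in dWAT, against 3.91 and 3.17 in sWAT.

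Ptgs2 is also an immediate early gene, one of those transcribed within minutes of a stimulus. Of 26 listed inducers and immediate early genes, 16 were higher in sWAT and 2 higher in dWAT, beside 8.8% and 7.56% of all genes tested. Their median log2 fold change was -1.44. Fos, a subunit of the AP-1 transcription factor, measured 280 and 371 CPM in dWAT, against 948 and 1103 CPM in sWAT (log2 fold change -1.66, limma adjusted p = 0.00348). Fosb (-2.40), Egr2 (-2.60) and Btg2 (-2.29), 3 further growth- or stress-induced genes, were likewise lower in dWAT. The cytokine genes on the list were divided. Il6 was lower in dWAT (log2 fold change -2.80), at 16.9 and 18.0 CPM in dWAT against 126.7 and 121.9 CPM in sWAT, while Tnf (2.27) and Il1b (1.90), which both encode inducers of COX-2, were higher in dWAT. Macrophages express both, and 11 of 13 tested macrophage markers were also higher in dWAT. The part of those cells in the Tnf and Il1b levels was not tested. Several of these calls depended on the settings. That of Nr4a3 was lost without dWAT replicate 1 (limma adjusted p = 0.112) or sWAT replicate 2 (0.0507), with library totals alone (0.0519), with no filter (0.0621) and without the intensity trend (0.0530). That of Dusp1 was lost without dWAT replicate 1 (0.179), with library totals alone (0.0591), quantile normalization (0.0837), no filter (0.0519) and without the intensity trend (0.0683). Egr1 was lost without the intensity trend (0.0537). The log2 fold change of Ptgs2 lay above that of 23 of the 26 genes, and whether Ptgs2 differs from them was not tested.

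The start of Ptgs2 is shown because cyclic AMP and inflammatory inducers act there. The sequences are from RefSeq on GRCm38.p6, given in the direction of the gene. Capitals mark matches to the letters searched, and positions count from 1 at the annotated start, with -1 the base before it. The first covers the 250 bases before the start (chr1:150099781-150100030, plus strand), and its capitals are a GC box (GGGCGG) at -170 to -165 and a C/EBP site (TTGCGCAA) at -69 to -62.
Ptgs2 upstream: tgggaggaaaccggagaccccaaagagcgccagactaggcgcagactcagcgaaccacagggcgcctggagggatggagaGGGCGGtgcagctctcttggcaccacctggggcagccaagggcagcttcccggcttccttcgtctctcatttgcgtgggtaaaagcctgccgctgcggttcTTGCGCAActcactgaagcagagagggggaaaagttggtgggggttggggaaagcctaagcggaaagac
The second is a 30-base stretch just after that start (chr1:150100033-150100062), and its capitals are a cyclic AMP response element (TGACGT, here on the opposite strand as ACGTCA) at 13 to 18 that overlaps an E-box (CACGTG) at 17 to 22.
Ptgs2 site: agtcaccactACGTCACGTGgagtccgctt
Both strands of the 300 bases around each annotated start were searched. Of 32851 such windows in the genome, 0.183% held the C/EBP letters, 7.51% the cyclic AMP response element, 7.15% the E-box and 35.7% the GC box. The Ptgs1 window held none of the 9 motifs searched. A match is a description of letters and says nothing about binding. The antisense gene Ptgs2os starts 67 bases from Ptgs2 without overlapping it, and had at most 0.0969 CPM, or 1 read.

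Among the terminal synthases, Ptges was by far the most abundant of the 3. It encodes the inducible microsomal prostaglandin E synthase and lies on chromosome 2, 30889471 to 30929863, on the minus strand. It measured 235 and 143 CPM in dWAT, against 305 and 200 CPM in sWAT, and its mean level exceeded that of 94.6% of tested genes. Replicate 1 was above replicate 2 in each depot and the depots overlapped. A log2 fold change of -0.42 (SE 0.29, 95% interval -1.12 to 0.27) did not pass (limma adjusted p = 0.355). Per kb of exon, Ptges exceeded Ptges2, which encodes the constitutive membrane-associated isoform, by 8.67 and 6.53 times in dWAT, against 9.75 and 10.4 times in sWAT. Ptges3, the cytosolic isoform and an HSP90 cochaperone, was in the same range per kb as Ptges, at 59.8 and 50.5 in dWAT against 75.4 and 59.4 CPM per kb in sWAT. For comparison, Ptges had 59.9 and 36.5 CPM per kb in dWAT and 77.6 and 50.8 CPM per kb in sWAT. Ptges2 (log2 fold change -0.0087, adjusted p = 0.985) and Ptges3 (-0.28, adjusted p = 0.289) did not pass in limma.

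Ptgds and Ptgis were near the limit of detection. Ptgds, which encodes the lipocalin-type prostaglandin D synthase (chromosome 2, 25466709 to 25470046), had 5 and 3 reads in dWAT, against 6 and 1 reads in sWAT. The ratio of its levels, dWAT over sWAT, was 1.18 with a 95% exact counting interval of 0.373 to 3.81, so a difference was not detectable at this depth. Ptgis, which encodes prostacyclin synthase (chromosome 2, 167191805 to 167240604), had 5 and 7 reads in dWAT, against 11 and 12 reads in sWAT. Its ratio was 0.537, with an interval of 0.244 to 1.12 that reached past equality. These intervals cover counting error only.

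The other prostaglandin D synthase gene stood apart. Hpgds, which encodes the haematopoietic enzyme found in macrophages and mast cells, measured 19.1 and 23.1 CPM in dWAT, against 4.56 and 5.82 CPM in sWAT. The depots did not overlap, and the log2 fold change was 1.93 (SE 0.21, limma adjusted p = 0.00350). Of 10 tested synthase genes beyond those chosen, 3 were higher in dWAT and 0 in sWAT, beside 7.56% and 8.8% of all genes tested. The other 2 were Fam213b, a prostaglandin F synthase gene (log2 fold change 0.88, adjusted p = 0.0134), and Tbxas1, the thromboxane synthase gene of platelets and macrophages (0.91, adjusted p = 0.0483). The Tbxas1 call was lost without dWAT replicate 1 (adjusted p = 0.244), dWAT replicate 2 (0.149) or sWAT replicate 2 (0.103), and with edgeR (0.0533), DESeq2 (0.132), quantile normalization (0.0837) or no filter (0.0945). That of Fam213b was lost without dWAT replicate 1 (0.0748) or dWAT replicate 2 (0.0554). Macrophage markers differed between the depots as well. Of 13 tested macrophage markers 11 were higher in dWAT and 0 in sWAT, beside 7.56% and 8.8% of all genes tested. The 14 markers in the table summed to 1859 and 1754 CPM in dWAT, against 671 and 636 CPM in sWAT. Within each depot this sum was slightly higher in replicate 1, and Hpgds in replicate 2, but the order of 2 libraries cannot assign a gene to a cell type. Of 7 tested mast cell markers 3 were higher in dWAT and 1 in sWAT, beside 7.56% and 8.8% of all genes tested. Mast cell markers summed to 76.7 and 232 CPM in dWAT, against 51.3 and 62.4 CPM in sWAT. No marker of either list was at 0 in all libraries, although the mast cell receptor gene Fcer1a was at 0 in both sWAT libraries. The part of these cells in the Hpgds level was not tested.

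Hpgd was one of the 2 called genes. It encodes the dehydrogenase that inactivates prostaglandins E2 and F2alpha, and lies on chromosome 8, 56294585 to 56321043, on the plus strand. It measured 34.6 and 62.2 CPM in dWAT, against 13.004 and 20.2 CPM in sWAT, or 48.4 ± 19.5 in dWAT and 16.6 ± 5.06 in sWAT (SD, n = 2 each). Both dWAT values lay above both sWAT values, and replicate 2 was the higher in each depot. The log2 fold change was 1.49 (SE 0.32, 95% interval 0.72 to 2.26, limma adjusted p = 0.0267), a fold of 2.81. With edgeR on the recovered reads the adjusted p was 0.0275. The call was lost without dWAT replicate 2, where the log2 fold change was 1.07 (adjusted p = 0.0744), and without the intensity trend in limma (adjusted p = 0.0570). Per kb of exon the ratio of the E synthase gene Ptges to Hpgd was 2.91 and 0.987 in dWAT, against 10.04 and 4.24 in sWAT. The values of that ratio did not overlap between depots. Levels of single genes did not overlap for 61.8% of tested genes, and no such share was computed for ratios.

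Ptgfr was the gene with the largest difference of the 8. It encodes FP, the receptor of prostaglandin F2alpha, and lies on chromosome 3, 151796502 to 151837630, on the minus strand. It measured 20.7 and 31.4 CPM in dWAT, from 227 and 331 reads, against 3.21 and 3.49 CPM in sWAT, from 38 and 36 reads. The sWAT libraries were close together and the lower dWAT library was several fold above them. Means were 26.0 ± 7.59 CPM in dWAT and 3.35 ± 0.199 CPM in sWAT (SD, n = 2 each). On the log2 scale the fold change was 2.76 (SE 0.25, 95% interval 2.16 to 3.35, limma adjusted p = 0.00228). It was between 2.46 and 3.05 with each library left out in turn and passed each time. By log2 fold change Ptgfr ranked 34 of 12797 tested genes from the dWAT end, and Hpgd 244. The ratio of pooled reads scaled to CPM was 7.76, with a 95% counting interval of 6.08 to 10.03.

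**Figure D2:**
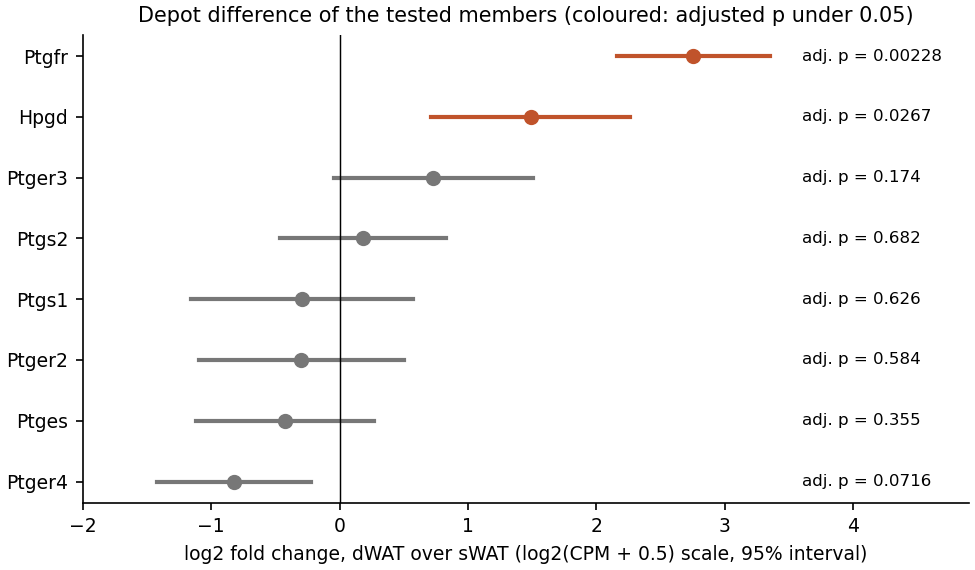
Log2 fold change of the 8 tested genes, dWAT over sWAT, on the log2(CPM + 0.5) scale, with points for estimates, lines for limma 95% intervals, and the adjusted p at the right. Ptgfr (2.76) and Hpgd (1.49) are coloured as passing, and the interval of Ptger4 (-1.42 to -0.23) excludes 0 although its adjusted p does not pass.

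The upstream sequences of Ptgfr and Hpgd are shown because these were the genes called together in the same direction. They are the 250 bases before the RefSeq start on GRCm38.p6 (chr3:151837529-151837778, minus strand, and chr8:56294302-56294551, plus strand), given 5′ to 3′ along each gene. These starts differ from the outermost GENCODE ends given above. The capitals are GC boxes (GGGCGG or its reverse complement CCGCCC), the last of which in Ptgfr runs past the start.
Ptgfr upstream: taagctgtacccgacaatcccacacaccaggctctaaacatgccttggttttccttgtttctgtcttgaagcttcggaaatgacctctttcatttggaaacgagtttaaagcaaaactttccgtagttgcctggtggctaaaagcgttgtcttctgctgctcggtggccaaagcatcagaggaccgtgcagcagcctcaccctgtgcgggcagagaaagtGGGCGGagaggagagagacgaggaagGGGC
Hpgd upstream: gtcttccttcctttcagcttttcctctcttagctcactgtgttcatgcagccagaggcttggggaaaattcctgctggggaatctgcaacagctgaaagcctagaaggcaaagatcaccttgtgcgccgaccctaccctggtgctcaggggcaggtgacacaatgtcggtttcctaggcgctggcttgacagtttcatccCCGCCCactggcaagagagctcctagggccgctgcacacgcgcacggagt
Of the 9 motifs searched, the GC box was the only one found in both genes, and it also occurs in the windows of Ptges, Ptger3, Ptger4 and Ptgs2. The Hpgd window also held a TATA box (TATAAA) at 5 to 10, whose letters were in 13.6% of windows. The PPAR direct repeat and the glucocorticoid response element were found in none of the 9 genes with an entry, and in 0.0396% and 0.475% of all windows. Searches for an AP-1 site (TGANTCA) and a CCAAT box (CCAAT) found no match in either gene, against 7.81% and 37.4% of all windows.

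Transcripts of fibroblasts and adipocyte progenitors, which can adhere to floating adipocytes, were followed beside Hpgd and Ptgfr. Their 15 markers summed to 6944 and 15005 CPM in dWAT, against 4445 and 7532 CPM in sWAT, so the sums overlapped between depots and replicate 2 was the higher in each. Of the 15, 2 were higher in dWAT (Dpt and Thy1) and 1 in sWAT (Pdgfrb), beside 7.56% and 8.8% of all genes tested. None of them was at 0. The list was divided, with 9 estimates positive and 6 negative. Values did not overlap for 4 genes with dWAT above and 4 with sWAT above, beside 31.6% and 30.1% of all tested genes. Col1a1 measured 528 and 1524 CPM in dWAT, against 159 and 382 CPM in sWAT. Cd34 measured 56.5 and 92.2 CPM in dWAT, against 98.3 and 147 CPM in sWAT. Pdgfra, the defining receptor of these cells, measured 21.1 and 43.0 CPM in dWAT, against 26.6 and 41.2 CPM in sWAT. Col3a1 was the largest part of the sum, at 3871 and 8179 CPM in dWAT, against 2741 and 4547 CPM in sWAT. The genes whose profile over the 4 libraries was nearest to that of Hpgd, by the root mean square distance of centred log2 values, were the collagen gene Col5a1 (0.032), the matrix proteoglycan gene Ogn (0.053) and the secreted phospholipase gene Pla2g2d (0.062). Nearest to Ptgfr were the cytokine gene Osm (0.16), Igdcc4 (0.22) and Chodl (0.22). Keratinocyte and hair follicle markers summed to 145 and 62.8 CPM in dWAT, against 24.9 and 17.5 CPM in sWAT. Of 9 tested, 8 were higher in dWAT and 0 in sWAT, beside 7.56% and 8.8% of all genes tested. Their median log2 fold change was 3.08. Krt5 (0.0844 and 0 CPM in sWAT), Krt15 (0.0844 and 0) and Dsp (0.253 and 0.388) were among the markers that passed the 1 CPM filter only through the dWAT libraries. Krt17 was at 0 in both sWAT libraries, so it too could pass only through dWAT, and no marker was at 0 in all 4. For such genes the filter favoured a call in that direction, so the count of 8 and the median of 3.08 lean that way. Macrophage markers, as given above for Hpgds, were also higher in dWAT. In dWAT the keratinocyte and macrophage sums were higher in replicate 1, and Hpgd, Ptgfr and the fibroblast sum in replicate 2. The order of 2 libraries cannot assign a gene to a cell type. The part of fibroblasts, keratinocytes and macrophages in the Hpgd and Ptgfr differences was not tested.

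The E2 receptors covered a wide range of levels. Ptger3, which encodes the Gi-coupled receptor EP3, lies on chromosome 3, 157566892 to 157645888, and was the most abundant. It measured 436 and 362 CPM in dWAT, against 343 and 167 CPM in sWAT, and its mean exceeded that of 96.7% of tested genes. Both dWAT libraries were above both sWAT libraries, as for 31.6% of all tested genes. The estimate of 0.73 on the log2 scale (SE 0.32, 95% interval -0.046 to 1.51) did not pass (limma adjusted p = 0.174). It depended on the sWAT libraries, at 1.25 (adjusted p = 0.000721) without sWAT replicate 1 and 0.21 (adjusted p = 0.446) without sWAT replicate 2. Nearest in profile were Tmem208 (0.053), the mevalonate kinase gene Mvk (0.060) and Tonsl (0.060). The gene has several receptor isoforms, which these gene-level values do not separate.

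Ptger4, which encodes the Gs-coupled receptor EP4 (chromosome 15, 5206661 to 5244187), went the other way. It measured 12.7 and 15.9 CPM in dWAT, against 20.4 and 31.9 CPM in sWAT. The sWAT values lay above the dWAT values, as for 30.1% of all tested genes. On the log2 scale the difference was -0.82 (SE 0.25, 95% interval -1.42 to -0.23, limma adjusted p = 0.0716). DESeq2 called it (-0.88, adjusted p = 0.0352) and edgeR did not (-0.88, adjusted p = 0.0690). Over all alternatives the adjusted p was from 0.000684 to 0.271, and it passed without sWAT replicate 1 (-1.14, adjusted p = 0.00528). Ptger4 overlaps Ttc33 on the opposite strand over 11676 bases, and reads of the pair may not be separable, since no source used here says whether counting used the strand. Ttc33 measured 30.7 and 34.2 CPM in dWAT, against 29.9 and 27.4 CPM in sWAT, the reverse order of Ptger4. Ptger2, which encodes the other Gs-coupled receptor, EP2 (chromosome 14, 44988195 to 45003820), had 12 and 7 reads in dWAT, against 14 and 12 reads in sWAT. The dWAT level was 0.752 of the sWAT level, the counting interval running between 0.393 and 1.41. A log2 fold change of -0.30 did not pass (limma adjusted p = 0.584).

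Set per kb of exon, the receptor genes could be put in order. In dWAT Ptger3 led with 70.1 CPM per kb, followed by Ptgfr (3.84), Ptger4 (2.15), the prostacyclin receptor gene Ptgir (0.364) and Ptger2 (0.169). In sWAT Ptger3 led with 44.8 CPM per kb, followed by Ptger4 (3.94), Ptgir (0.600), Ptgfr (0.494) and Ptger2 (0.226). Ptgfr and Ptger4 therefore stood in opposite order, at 3.05 and 4.63 against 1.90 and 2.40 CPM per kb in dWAT, and at 0.473 and 0.515 against 3.07 and 4.80 CPM per kb in sWAT. Their values did not overlap within either depot, although reads of Ptger4 may not be separable from those of Ttc33, as given above. The thromboxane receptor gene Tbxa2r and the EP1 gene Ptger1 had 0 to 3 reads per library and no order between them. Of the 7 receptor genes in the table, Ptger3 made up 93.2% and 89.2% of the summed CPM per kb in dWAT, against 93.2% and 82.4% in sWAT, Ptgfr 3.71% and 6.49% in dWAT against 0.732% and 1.45% in sWAT, and Ptger4 2.32% and 3.36% in dWAT against 4.75% and 13.5% in sWAT. Exon lengths are those of all GENCODE transcripts joined, so a gene with long unused exons is placed too low.

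**Figure D3:**
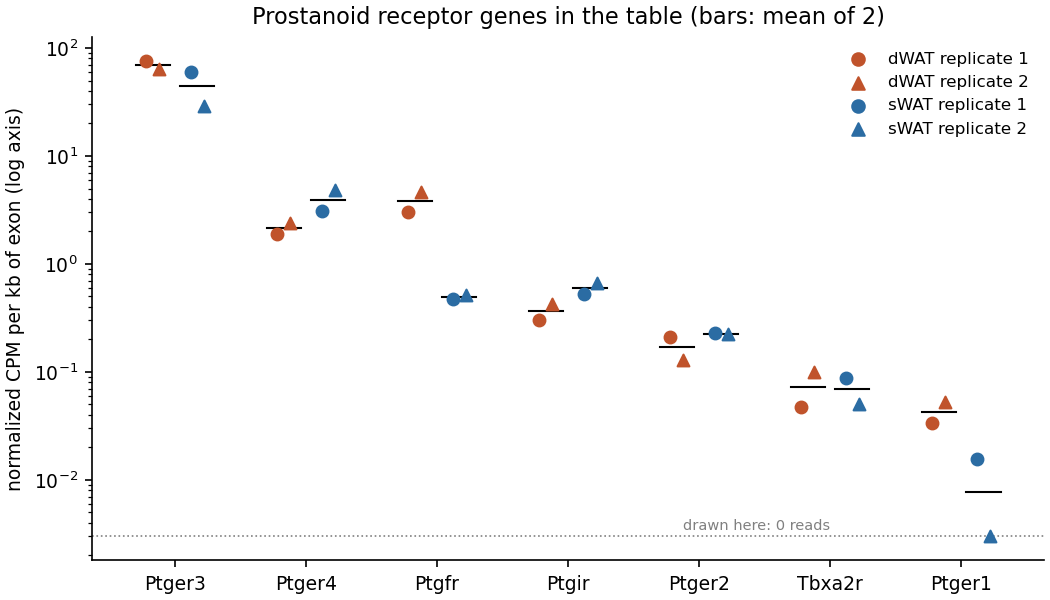
Normalized CPM per kb of exon (log axis) of the 7 prostanoid receptor genes in the table, dWAT left of sWAT, with circles for replicate 1, triangles for replicate 2 and bars for means of 2 libraries (the point with 0 reads is drawn on the dotted line). Ptger3 lies above every other receptor in every library, and Ptgfr lies above Ptger4 in dWAT and below it in sWAT. Reads of Ptger4 may not be separable from those of Ttc33.

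Endothelial transcripts moved with the sWAT libraries. All 15 endothelial markers were higher in sWAT, beside 8.8% of all genes tested. None was at 0, and they summed to 597 and 627 CPM in dWAT, against 2088 and 3127 CPM in sWAT. Endothelial cells are a known site of prostacyclin synthesis and of COX-1. Ptgs1, Ptgis and Ptgir, which endothelial cells express, had 82, 12 and 26 reads in the dWAT libraries and 110, 23 and 44 reads in the sWAT libraries, and none was called. Of 10 tested pericyte and smooth muscle markers 7 were higher in sWAT and 2 in dWAT, beside 8.8% and 7.56% of all genes tested. Their sums overlapped, at 720 and 703 CPM in dWAT against 718 and 798 CPM in sWAT. The part of endothelial, pericyte or smooth muscle cells in the Ptgs1, Ptgis, Ptgir and Ptger4 levels was not tested. By the same distance the genes nearest in profile to Ptger4 were Frmd4a (0.023), Nxn (0.029) and Tmc5 (0.032). The single nearest genes to the 4 remaining were Lmo2 for Ptgs1 (0.042), Rom1 for Ptgs2 (0.028), Esm1 for Ptges (0.030) and Cyp4f16 for Ptger2 (0.030).

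**Figure D4:**
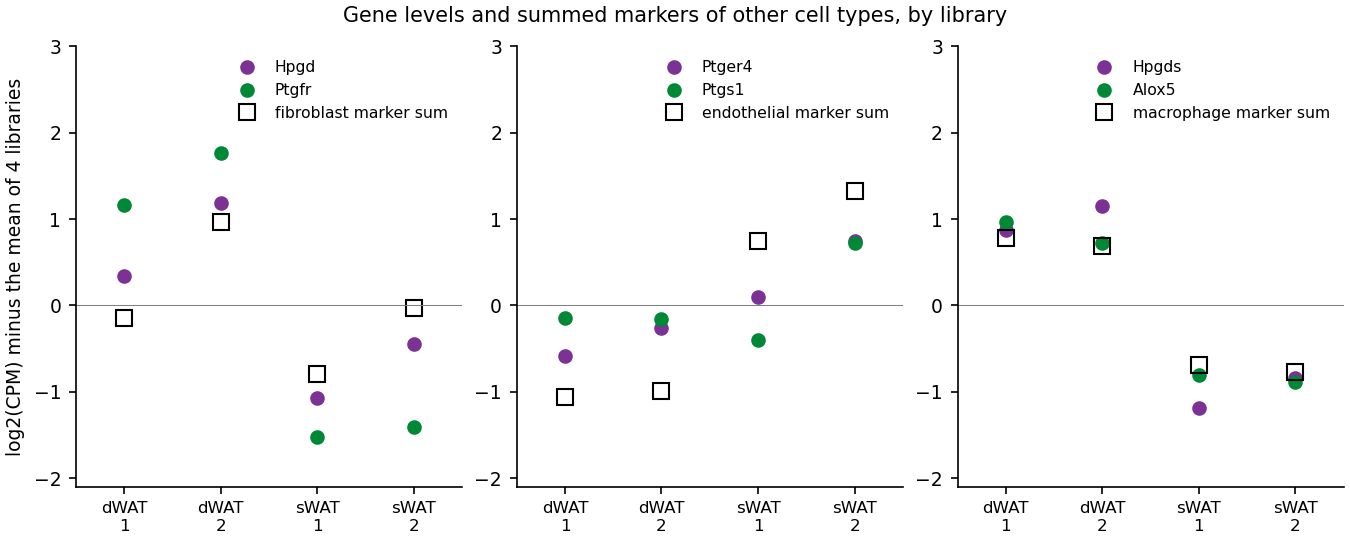
Log2(CPM) in each library minus the mean of the 4 libraries, for Hpgd and Ptgfr beside the summed fibroblast and progenitor markers (left), Ptger4 and Ptgs1 beside the summed endothelial markers (middle), and Hpgds and Alox5 beside the summed macrophage markers (right). The pairs were chosen after their values were seen. The fibroblast sum overlaps between the depots, at 6944 and 15005 CPM in dWAT and 4445 and 7532 CPM in sWAT, while the macrophage and endothelial sums do not overlap.

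Of 10 tested genes that release arachidonic acid, 4 were higher in dWAT and 0 in sWAT, beside 7.56% and 8.8% of all genes tested. Of the 10 estimates 9 were positive, and the median log2 fold change was 0.65, beside 0.016 over all genes. Macrophage (11 of 13) and keratinocyte (8 of 9) markers were higher in dWAT as well. Several of these keratinocyte markers passed the filter only through dWAT, as given above, which favoured calls in that direction. The part of macrophages and keratinocytes in the phospholipase levels was not tested. The 4 were the secreted phospholipase genes Pla2g5 (2.13, adjusted p = 0.00865) and Pla2g2d (1.57, adjusted p = 0.0397), the lysosomal Pla2g15 (1.01, adjusted p = 0.00717) and the cytosolic Pla2g4b (1.22, adjusted p = 0.0452), all by limma. Pla2g5 measured 6.64 and 4.08 CPM in dWAT, against 0.844 and 0.776 CPM in sWAT. It passed the 1 CPM filter only through the dWAT libraries, as did Pla2g4b (1.01 and 0.679 CPM in sWAT). The filter thus favoured calls in that direction for both. The Pla2g15 call was lost without dWAT replicate 1 (0.0514). That of Pla2g2d was lost without dWAT replicate 2 (0.157), with no filter (0.0708) and without the intensity trend (0.0615). That of Pla2g4b was lost without dWAT replicate 1 (0.232), dWAT replicate 2 (0.112) or sWAT replicate 2 (0.0917), with DESeq2 (0.140), quantile normalization (0.0600) and no filter (0.0645). The most abundant members did not pass. Pla2g16, the phospholipase that supplies arachidonic acid for prostaglandin E2 in mouse adipocytes, measured 360 and 363 CPM in dWAT, against 412 and 340 CPM in sWAT (log2 fold change -0.051, adjusted p = 0.841). Mgll, the monoglyceride lipase that releases the acid from an endocannabinoid, had a log2 fold change of 0.086 (adjusted p = 0.742).

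A further list held genes that make arachidonic acid or attach it to lipids, together with the lipase genes Dagla, Daglb and Abhd6. Of its 9 tested genes 1 was higher in dWAT and 2 in sWAT, beside 7.56% and 8.8% of all genes tested. In this list 3 estimates were positive and 6 negative, and the median log2 fold change was -0.50. Acsl4, the ligase that activates arachidonic acid, measured 39.2 and 35.7 CPM in dWAT, against 79.5 and 73.0 CPM in sWAT (log2 fold change -1.02, limma adjusted p = 0.00593). The elongase gene Elovl5 was also lower in dWAT (-0.85, adjusted p = 0.0241, lost without dWAT replicate 2 at 0.135 and without the intensity trend at 0.0576), and Daglb, a diacylglycerol lipase gene, was higher (0.91, adjusted p = 0.0220, lost without dWAT replicate 1 at 0.0866 or dWAT replicate 2 at 0.104). The desaturase genes Fads1 (-0.94, adjusted p = 0.0587) and Fads2 (-1.34, adjusted p = 0.0671) did not pass.

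Transport and further breakdown gave 1 call each way among 9 tested genes, beside 7.56% in dWAT and 8.8% in sWAT over all genes. Abcc4, which encodes an exporter of prostaglandins, measured 7.10 and 4.36 CPM in dWAT, against 16.9 and 20.8 CPM in sWAT (log2 fold change -1.66, limma adjusted p = 0.0109). Ptgr1, a reductase gene that acts after Hpgd, was higher in dWAT (1.09, adjusted p = 0.0243), a call lost without dWAT replicate 1 (0.161) or dWAT replicate 2 (0.0660) and with no filter (0.0529). The uptake transporter gene Slco2a1 had a log2 fold change of -0.60 (adjusted p = 0.184). The relatives Ptgir (-0.55, adjusted p = 0.266) and Ptgfrn (0.69, adjusted p = 0.122) were the only other receptor-list genes tested, and neither passed.

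Downstream of the receptors, the G protein genes did not pass, whereas some cyclic AMP enzymes did. Gnas, which encodes the Gs subunit used by EP2 and EP4, measured 819 and 856 CPM in dWAT, against 948 and 891 CPM in sWAT (log2 fold change -0.13, limma adjusted p = 0.557). Gnai1, of the Gi family through which EP3 acts (0.27, adjusted p = 0.265), and Gnaq, through which FP acts (0.15, adjusted p = 0.436), did not pass either. Of 17 genes in this list 2 were higher in dWAT and 2 in sWAT, beside 7.56% and 8.8% of all genes tested. Pde4b, a phosphodiesterase that degrades cyclic AMP, measured 18.5 and 30.2 CPM in dWAT, against 100.3 and 163 CPM in sWAT (-2.41, adjusted p = 0.00500). Among adenylyl cyclase genes Adcy7 (1.62, adjusted p = 0.0141) and Adcy5 (0.53, adjusted p = 0.0281) were higher in dWAT and Adcy4 (-1.69, adjusted p = 0.0249) was lower. The calls of Adcy5 (adjusted p = 0.181 without dWAT replicate 1 and 0.217 without dWAT replicate 2) and Adcy4 (0.0553 without dWAT replicate 1) were lost with a library left out, and both also without the intensity trend (0.0717 for Adcy5 and 0.0509 for Adcy4).

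The lipoxygenase branch competes with cyclooxygenases for arachidonic acid. Of 8 tested genes 2 were higher in dWAT and 0 in sWAT, beside 7.56% and 8.8% of all genes tested. Alox5, the first enzyme of leukotriene synthesis, measured 11.6 and 9.77 CPM in dWAT, against 3.38 and 3.20 CPM in sWAT (log2 fold change 1.56, limma adjusted p = 0.00688), and its partner gene Alox5ap had a log2 fold change of 1.37 (adjusted p = 0.00669). Both are expressed by macrophages, whose summed markers are given above, and the part of those cells was not tested. Over all 91 tested genes of these pathway lists, 15 were higher in dWAT and 21 in sWAT, beside 7.56% and 8.8% of all genes tested. Inducers and immediate early genes made up 16 of the 21.

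**Figure D5:**
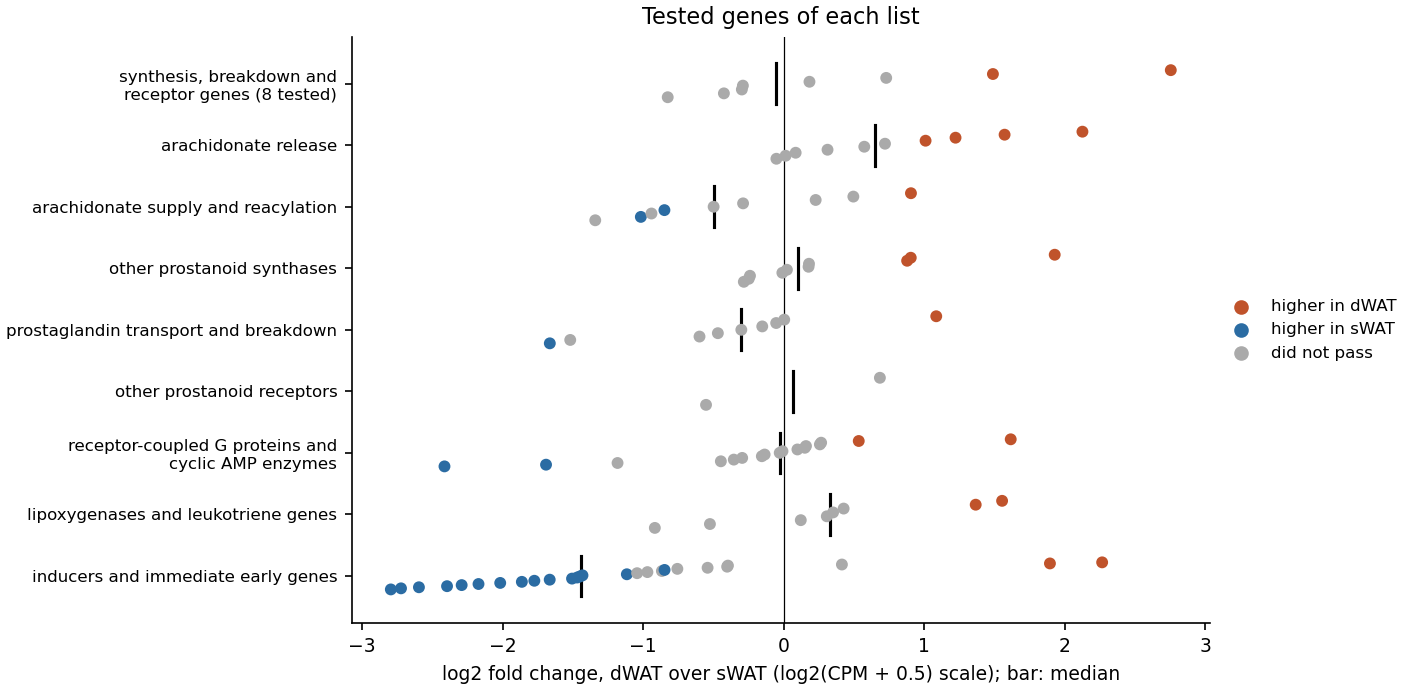
Log2 fold change, dWAT over sWAT, of each tested gene of the 8 genes described and of the pathway lists, with a black bar for the median of each list and colours for genes called higher in dWAT, called higher in sWAT or not called. The inducers and immediate early genes lie mostly on the sWAT side (median -1.44), the arachidonate release genes mostly on the dWAT side (median 0.65).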

How the data were processed

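The authors deposited a table of gene-level signal values, normalized CPM per the file headers, for 2 dWAT and 2 sWAT libraries grouped by title. The submitters' processing notes list, without roles, the build mm10 and the tools edgeR, featureCounts with Subread 1.4.6, Picard 1.127 and TopHat2 2.0.12. Each value was a whole multiple of the value of 1 read within 0.001 for 100% of genes, and reads recovered in this way served as alternatives.

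Genes with at least 1 CPM in at least 2 libraries were tested with limma 3.58.1 (R 4.3.3, intensity trend, two-sided) on log2(CPM + 0.5), which understates changes of low genes. P-values were adjusted over all genes tested by the Benjamini-Hochberg method. The edgeR 4.0.16 quasi-likelihood test called 2056 genes and DESeq2 1.42.0 called 1985, against 2094 by limma. Levels per kb used exon lengths of GENCODE M21 on GRCm38, which gave a length for 95.2% of tested genes. Promoter sequences came from RefSeq, with an entry for 9 of the 10 genes. The genes, lists and motifs were chosen with earlier results of these data known. All 10 genes were named. Of the lists, genes that passed or had a mean of at least 20 CPM could be named, Abhd6, Dagla, Ptgir, Slco2a1, Tbxa2r, Ptger1, the overlapping or adjacent genes and the marker genes being named after their values were seen. Profile neighbours are the 3 nearest of all tested genes. Alternatives changed the tool, scaling, pseudocount, filter, trend, block and libraries.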

Additional observations from a re-analysis of the deposited data

How the results depend on the processing

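The number of the 10 genes called higher in dWAT was 2 under limma, edgeR, DESeq2, 4 changes of pseudocount or filter and both changes of scaling, 1 without the intensity trend, 3 with the replicate block (Ptger3 the added gene, adjusted p = 0.00188), and 1 to 3 with a library left out. The number called higher in sWAT was 0 under limma and edgeR, 1 with DESeq2, 2 with the replicate block (Ptges, adjusted p = 0.00820, and Ptger4, 0.000684), and 0 to 1 with a library left out. Pathway-list genes called were 15 in dWAT and 21 in sWAT. With a library left out these counts were 8 to 15 and 19 to 29, with 8 both without dWAT replicate 1 and without dWAT replicate 2. With the replicate block the count in sWAT was 38. Log2 fold changes with a library left out ran from -0.80 to 0.22 for Ptgs1, turning positive without sWAT replicate 2, and from -0.22 to 0.58 for Ptgs2, turning negative without sWAT replicate 1. The causes were not tested. Ptgfr passed under every alternative run.

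Whether replicate numbers pair the libraries is not given. Across tested genes, the replicate 1 minus replicate 2 difference in dWAT correlated with that in sWAT at r = 0.464, a hint from the data only. With the number as a block, limma called 2342 genes higher in dWAT and 2384 in sWAT, against 968 and 1126 without it. Leaving out dWAT replicate 1 gave 455 and 568, and leaving out dWAT replicate 2 gave 339 and 698. Depth limits Ptgds, Ptgis and Ptger2, with 1 to 14 reads per library.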
